A study of Homo sapiens with 6 samples.

Results

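The 45 genes that encode the proteins of the large (60S) subunit of the cytosolic ribosome, RPL3 to RPL41 with RPLP0, RPLP1 and RPLP2, were examined for binding sites of USP39. All 45 carried sites, 761 in all, which is 2.19% of the 34781 sites of the list. A site was counted for a gene when its central base lay in the span of the gene, on the strand that holds most sites of that gene, and outside the genes of small nucleolar RNAs (SNORD and SNORA). USP39 belongs to the tri-snRNP, a large pre-assembled particle of the spliceosome. Its RNA contacts were mapped by iCLIP2, in which 254 nm UV light joins proteins to the RNA they touch and an antibody against USP39 recovers the RNA, in WT HEK293T cells, a widely used established line derived from human embryonic kidney. A low and a high membrane region, both taken at sizes over that of USP39, gave 3 libraries each.

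The sites come from 1 merged list, which GEO holds with replicate 1 of the low region. Which libraries went into it is not stated in the labels. Each site is 5 nt wide and has no height, so read depth is unknown and no value below has a replicate error or a test. The low and high regions could not be compared, a control made without UV was not analysed here, and RNA abundance was not measured. More USP39 contacts and more RNA of a gene therefore cannot be told apart. The intervals given are 95% Wilson intervals, which cover counting error only. For shares of sites they treat each site as independent. Sites of a gene often stand close together, so these intervals may be too narrow. Of 4 genes listed as markers of the line, IRS4 had 180 sites and VIM 22, while PAX2 and NEFL had 0, and none of 6 genes of other tissues, such as ALB, INS and HBB, had a site.

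Large subunit proteins are made in the cytoplasm, enter the nucleus and are built onto the 28S, 5.8S and 5S rRNAs in the nucleolus. Their mRNAs typically begin with a cytosine followed by a stretch of pyrimidines, the 5′ terminal oligopyrimidine (TOP) tract, through which the mTOR pathway and the protein LARP1 control their translation. Many of these genes also carry small nucleolar RNA genes in their introns, and the snoRNAs are released when the excised intron is trimmed.

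The gene with the most sites was RPL3, whose protein reaches towards the peptidyl transferase centre, with 46 sites on chromosome 22 between 39313029 and 39319499. They covered nearly the whole span, and no stretch between neighbouring sites was longer than 564 nt. Among the 20046 protein-coding genes, RPL3 stood at rank 82 by number of sites. RPL5 and RPL11 encode the proteins that bring 5S rRNA into the subunit and that bind the p53 regulator MDM2. RPL5 had 42 sites on chromosome 1 between 92832036 and 92841889, and RPL11 had 15.

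The stalk, the arm of the subunit that recruits elongation factors, is encoded by RPLP0, RPLP1, RPLP2 and, at its base, RPL12. These 4 genes held 87 sites, with 36 in RPLP0, 23 in RPL12 and 14 each in RPLP1 and RPLP2. RPLP0 had 8.16 sites per kb of span, the highest density of the 45 genes, and 10 of its sites fell within 500 nt. RPL10A, the protein of the mobile L1 stalk at the other side of the subunit, had 17 sites or 7.14 per kb.

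The 9 genes of proteins around the tunnel through which the new peptide leaves held 119 sites, from 4 to 37 a gene. RPL4, which lines the tunnel, had 37 sites on chromosome 15 between 66498597 and 66504847. RPL31 had 17, RPL19 had 16, RPL17 and RPL35 had 14 each and RPL26 had 8. RPL23A, which sits at the tunnel exit, had 5. The fewest sites of all 45 genes, 4 each, were in RPL22 and RPL39. RPL22 also had the lowest density, 0.274 sites per kb, in a span of 14576 nt. Of the proteins that join late in subunit maturation, RPL10 had 25 sites, RPL24 had 23, RPL29 had 13 and RPL41, whose protein is the smallest of the ribosome, had 7.

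The other 25 genes held 413 sites. After RPL3 they were led by RPL15 with 27 sites, RPL13 with 26, RPL6 with 24, and RPL32 and RPL7A with 18 each. RPL8, another protein close to the peptidyl transferase centre, had 17 sites in a span of 2622 nt, or 6.48 per kb. The lower end of these genes was RPL36A with 7 sites, RPL36 with 8 and RPL21 with 9.

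Over all 45 genes the number of sites ranged from 4 to 46 with a median of 14, and 10 genes had 20 or more. At least 1 site was present in 45 of 45 members, against 23% of all protein-coding genes. At least 5 sites were present in 43 of 45, against 8.83% of all protein-coding genes. The 12 members with the most sites held 45.3% of the sites. Density had a median of 3.34 sites per kb and a range of 0.274 to 8.16. Across the 45 genes, which share 1 list, the number of sites hardly followed the length of the span (Spearman's rho 0.18), so the density of a gene depends largely on its annotated length.

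**Figure D1:**
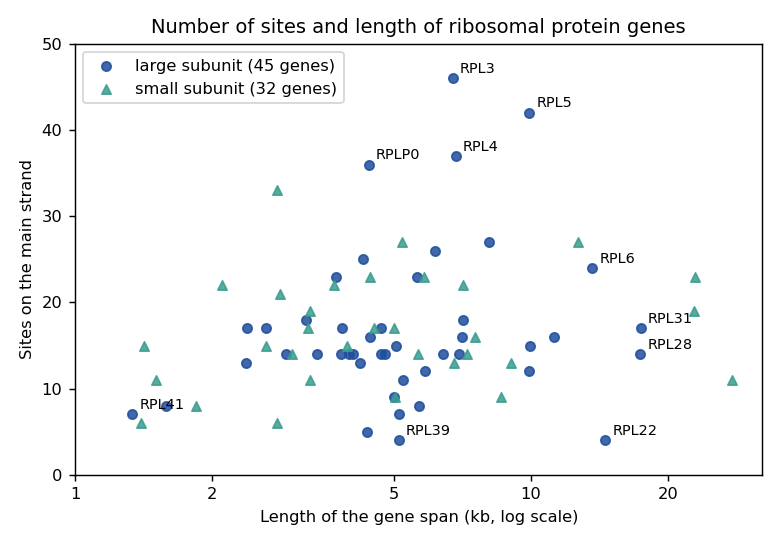
Number of sites (vertical axis) against the length of the gene span in kb (horizontal axis, log scale) for 45 large subunit genes (circles) and 32 small subunit genes (triangles). RPL3, RPL5, RPL4 and RPLP0 stand highest with 46, 42, 37 and 36 sites, RPL22 and RPL39 lowest with 4, and genes of very different length, such as RPL31 and RPL35, had similar numbers (17 and 14).

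The 32 small subunit genes gave similar figures. All 32 had a site, and their median was 15.5 sites and 3.78 sites per kb, against 14 sites and 3.34 per kb in the large subunit genes. The small subunit genes with the most sites were RPS2 with 33, and RPS19 and RPS4X with 27 each. Other protein-coding genes that had at least 5 sites and a span of up to 10000 nt, 353 genes, had a median of 9 sites and 1.98 per kb. These differences were not tested, because the list has no replicates.

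The strand of the sites was the same throughout each gene. In 45 of 45 members no site lay on the other strand. In all 38 members with an entry in the RefSeq promoter table the main strand was the annotated strand. Neither share was computed for other protein-coding genes, so whether this is particular to the members is not known.

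**Figure D2:**
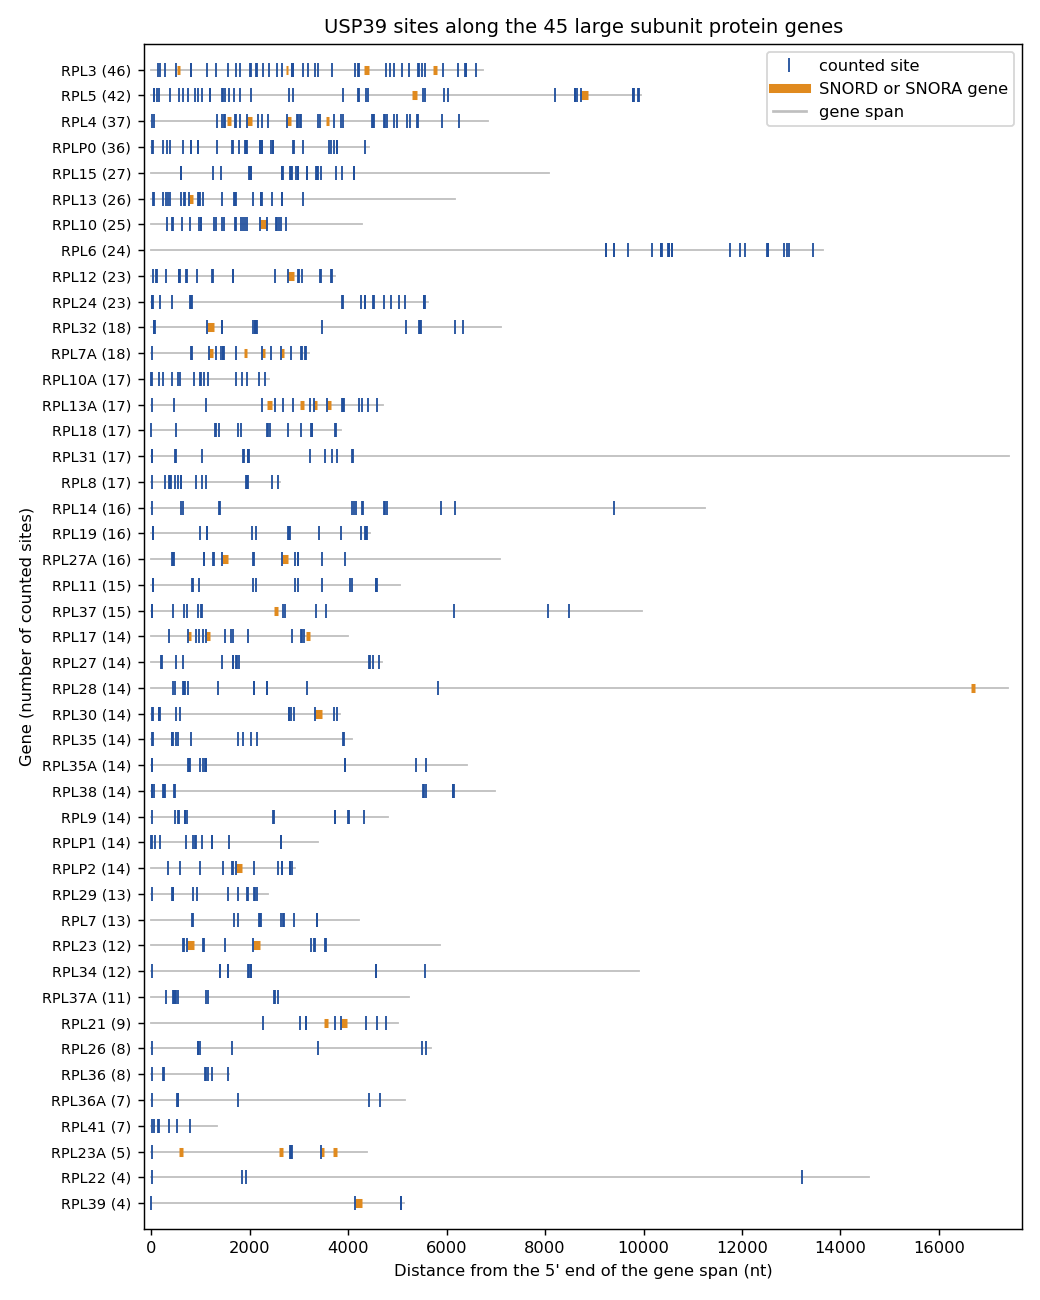
Counted sites (blue ticks) along the spans (grey lines) of the 45 large subunit genes, ordered by number of sites from RPL3 with 46 to RPL22 and RPL39 with 4; the horizontal axis is the distance from the 5′ end of the span in nt and orange bars are SNORD and SNORA genes. Sites fill the spans of RPL3 and RPLP0, end early in RPL31 and RPL28, and in RPL6 begin only at base 9229.

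Sites lay more often towards the 5′ side of these short genes. The first 50% of the span held 464 of the 761 sites (61.0%, interval 57.5% to 64.4%), and 28 of 45 members had more than 50% of their sites there. It held 60.2% of the sites in small subunit genes and 37.8% in other protein-coding genes. In those of the others with at least 5 sites and a span of up to 10000 nt it held 44.6%. The first 10% held 125 sites (16.4%, interval 14% to 19.2%) and the last 10% held 72 (9.46%, interval 7.58% to 11.7%). In the other 2452 protein-coding genes with at least 3 sites, of any span length, the order was the opposite, with 10.6% of the sites in the first 10% and 24.7% in the last 10%. The small subunit genes resembled the large subunit genes, with 18.0% in the first 10% and 9.21% in the last 10%. In 19 members the last 10% held no site. Neither this count of members nor the 28 above was computed for other genes. RPLP2 had 5 of its 14 sites there and RPL6 had 7 of 24.

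**Figure D3:**
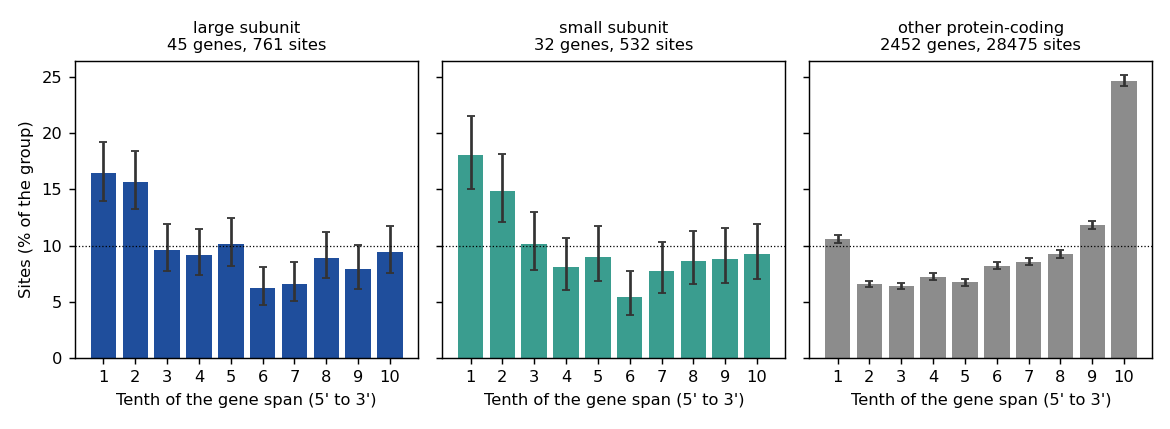
Percent of sites (vertical axis) in each 10% of the gene span from 5′ to 3′ (horizontal axis) for large subunit genes, small subunit genes and other protein-coding genes with at least 3 sites; bars are shares of the pooled sites, error bars are 95% Wilson intervals and the dotted line is an even spread. The first bar is the highest in the large subunit genes, at 16.4%, and in the small subunit genes, at 18.0%, while the last bar is the highest in the others, at 24.7%.

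Some annotated spans run far past the sites. In 4 members, RPL13, RPL28, RPL31 and RPL37A, the last site lay in the first 50% of the span. The 17 sites of RPL31 ended at base 4093 of 17436, and the 14 sites of RPL28 at base 5830 of 17411. Further members with no site in the last 25% of the span were RPL10, RPL15, RPL23, RPL27A, RPL34 and RPL41. RPL6 had the reverse arrangement, since all 24 sites lay between bases 9229 and 13451 of 13655. Exons were not known here, so long spans that stem from little-used transcripts cannot be told apart from stretches without sites. With the 5 members over 10000 nt left out, which was decided after seeing the data, the first 10% held 15.6% and the last 10% held 9.33%. This leaves out RPL28, RPL31 and RPL6 but keeps RPL13, RPL37A and the further members named above. It therefore does not show how far such spans shape the positions, and the share in the first 50% was not recomputed.

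At the 3′ ends, the last 50 nt of the spans held 3 sites, 2 in RPL5 and 1 in RPL36. The 50 nt before them held 21 sites, in 13 members, so sites were present close to the end but seldom at it. In the 500 nt after the 45 genes, on the same strand, there were 0 sites. With 3 counts as the limit for a count of 0, an expected count of up to 3 is allowed, which covers counting error only. Contacts that were not called as sites cannot be seen in the list. None of these counts at the 3′ end was set beside other genes, so whether they are particular to the members is not known.

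Sites within a gene often stood in groups. Of the 761 sites, 477 (62.7%, interval 59.2% to 66.0%) had another site of the same gene within 50 nt, against 71.2% in small subunit genes, 36.0% in other protein-coding genes with at least 5 sites and 45.5% in those of them with a span of up to 10000 nt. These shares stood in the same order as the median densities of the lists. Those were 3.78 sites per kb in small subunit genes, 3.34 in members, 1.98 in the short others and 0.437 in the others with at least 5 sites. Whether grouping differed beyond density was not tested. In the members the median distance between neighbouring sites was 89.5 nt, and 136 of 716 distances were 15 nt or less. RPL38, chosen after its values were seen, is an example. All 14 of its sites had a neighbour within 50 nt, 8 of them lay between bases 5 and 481, and the other 6 lay between bases 5511 and 6147 after a stretch of 5030 nt without a site. RPLP0 had a neighbour at 83.3% of its sites and RPL15 at 81.5%, while RPL3, with more sites, had one at 41.3%. None of the 4 sites of RPL22 had one.

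A position that many members shared was the start of the gene. In 31 of 45 members (68.9%, interval 54.3% to 80.5%) a counted site lay in the first 50 nt, against 8.81% of all protein-coding genes with a site. The share was 78.1% in small subunit genes and 29.2% in other protein-coding genes with at least 5 sites and a span of up to 10000 nt. The first 50 nt held 49 sites, 24 of them in bases 1 to 10, against 5 sites in the next 50 nt.

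Just before the span a further 20 sites were centred 1 to 10 nt upstream, in 19 members, and the rule leaves them out. Counted from the starts of the promoter table, 34 of the 38 listed members had a site centred within 10 nt of a start, against 7.47% of all protein-coding genes with a site and a listed start. The share was 21 of 25 in small subunit genes, and 26.1% of 291 other genes with at least 5 sites and a span of up to 10000 nt. The position was narrow: 31 of the 38 members had a site centred from 4 nt before to 5 nt after the first base, and 14 sites were centred exactly 2 nt before it. The 4 listed members without a site within 10 nt were RPL6, RPL15, RPL21 and RPL27. In RPL15 the nearest site was 14 nt after a start, in RPL27 45 nt after and in RPL6 139 nt after, while RPL21 had none within 200 nt. For the 7 members that were not listed, the end of the span was taken as the start, and RPL8, RPL23, RPL30 and RPL37 had a site within 10 nt of it. RPL23A had its nearest site at 11 nt and RPL5 at 52 nt, and RPL7 had none within 200 nt.

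The bases at these sites are shown for the 12 members that have more than 14 sites, 1 listed start and a site within 10 nt of it. Each line runs 5′ to 3′ from 10 bases before the start to the first 20 bases of the transcript (RefSeq, GRCh38.p14), and capitals mark the 5 bases of each site that lies whole in the window.
RPL3, chr22:39319604-39319633, minus strand: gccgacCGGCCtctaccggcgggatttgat
RPL4, chr15:66504836-66504865, minus strand: cgggagtggtaagcacttCCTTTtcctgtg
RPLP0, chr12:120201092-120201121, minus strand: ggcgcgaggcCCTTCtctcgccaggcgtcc
RPL12, chr9:127451387-127451416, minus strand: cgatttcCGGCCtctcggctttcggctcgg
RPL24, chr3:101686699-101686728, minus strand: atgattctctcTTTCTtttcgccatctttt
RPL7A, chr9:133348208-133348237, plus strand: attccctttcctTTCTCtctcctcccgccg
RPL10A, chr6:35468391-35468420, plus strand: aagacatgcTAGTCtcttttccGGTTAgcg
RPL13A, chr19:49487598-49487627, plus strand: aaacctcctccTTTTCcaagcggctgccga
RPL18, chr19:48619159-48619188, minus strand: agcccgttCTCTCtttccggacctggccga
RPL31, chr2:101002279-101002308, plus strand: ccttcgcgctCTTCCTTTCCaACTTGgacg
RPL14, chr3:40457329-40457358, plus strand: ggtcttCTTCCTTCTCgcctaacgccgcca
RPL27A, chr11:8682782-8682811, plus strand: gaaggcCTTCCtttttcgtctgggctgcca

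In most of these windows the capitals lie in or beside the pyrimidine stretch at the start. In RPL31 and RPL14, where a pair of sites abut, the capitals run together. RPL3, RPL12 and RPL10A are exceptions among these 12, since each has purines within the 5 bases of the site at the start. RPL4 is another, since its site is centred 10 nt after the listed start, in a pyrimidine stretch that begins after that start. Over all listed starts of the members, 63 sites lay whole between 10 bases before and 50 bases after a start, and 43 of them (68.3%) consisted of C and T alone. Among all 5-base windows of the same stretches, 16.3% did. The commonest site bases were CTTCC and CTTTC, with 11 sites each. Pyrimidines made up 88.9% of the bases in the sites and 57.7% of the bases in the windows, with T at 48.3% against 27.8% and C at 40.6% against 29.9%. These shares include bases upstream of the listed start, which a transcript that begins there does not contain. The 19 sites centred 1 or 2 nt before a start have most of their 5 bases there. Shares for transcribed bases alone were not computed. In small subunit genes 55.6% of 45 sites consisted of C and T alone (all windows, 13.5%), and in the other protein-coding genes with a site 21.1% of 546 sites did (all windows, 5.06%).

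The pyrimidine stretch and the start fall in the same place in these genes. A run of 5 or more C or T on the transcript strand, within the 10 bases around the start (5 before and 5 after), was present in 31 of 38 listed members (81.6%), in 80.0% of 25 small subunit genes and in 23.3% of 15842 protein-coding genes. It was present in 30 of the 34 members with a site within 10 nt of a start. Of the 4 without such a site, RPL21 had the run and RPL6, RPL15 and RPL27 did not. The position at the start and the bases there cannot be told apart as features of the sites.

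**Figure D4:**
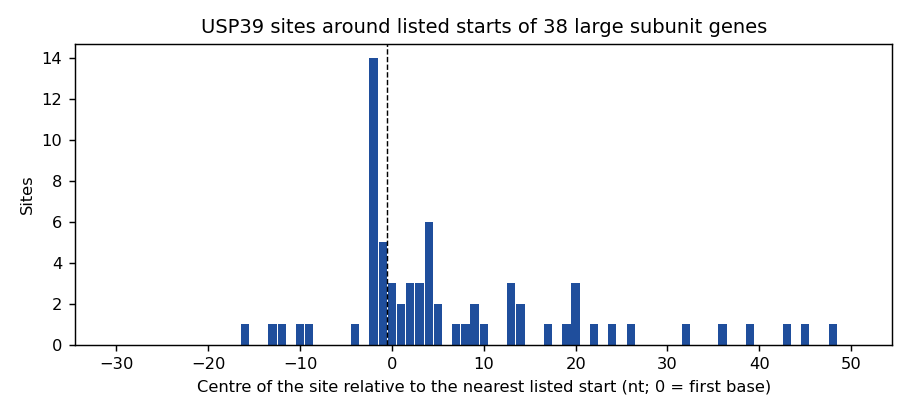
Number of sites (vertical axis) by the distance of their central base from the nearest listed start in nt (horizontal axis; 0 is the first transcribed base, the dashed line its 5′ side) in the 38 large subunit genes with a listed start, from 30 nt before to 50 nt after. Of 68 sites, 39 were centred from 4 nt before to 5 nt after the start, and the tallest bar is 14 sites at 2 nt before it.

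A like position recurred at the snoRNA genes inside these genes. The 45 members hold 40 SNORD and SNORA genes in 19 host genes, 28 of the C/D box class (SNORD), which guide ribose methylation of rRNA, and 12 of the H/ACA box class (SNORA), which guide pseudouridylation. Of the 40, 24 had a counted host site centred 1 to 5 nt before the snoRNA's 5′ end, 12 of them exactly 1 nt before. Since each site is 5 nt wide, these sites reach into the snoRNA gene, except that of SNORA21B, which was centred 3 nt before it. They are counted for the host by their central base alone. Only 2 more host sites lay in the remaining part of the 50 nt before the snoRNAs, and 1 lay in the 50 nt after them. With sites inside the snoRNA included, 35 of the 40 had a site within 5 nt of the 5′ end, against 38.8% of all 544 SNORD and SNORA genes of the table. Of the 37 with a site inside, 91.9% had a site there, against 88.9% of 18 in small subunit genes and 79.1% of 191 elsewhere with a site inside, so this position was common to snoRNA genes with sites. In RPL27A, for example, both SNORA3A and SNORA3B had a host site centred 1 nt before them. In RPL17 host sites were centred 1 nt before SNORD58A and 2 nt before SNORD58B.

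The sites inside the snoRNA genes were left out of all counts for the hosts. RPL4 lost 13 in this way, RPL13A 10, RPL7A and RPL23A 9 each, and RPL17 8. In RPL23A, which holds 4 SNORD genes, the sites left out outnumbered the 5 that were counted. Host genes had a median of 16 counted sites and 3.62 per kb, against 14 sites and 3.03 per kb in the 26 members without a snoRNA gene. The host figures include the 24 sites centred 1 to 5 nt before a snoRNA, which only host genes can have. These medians were not computed without them.

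**Figure D5:**
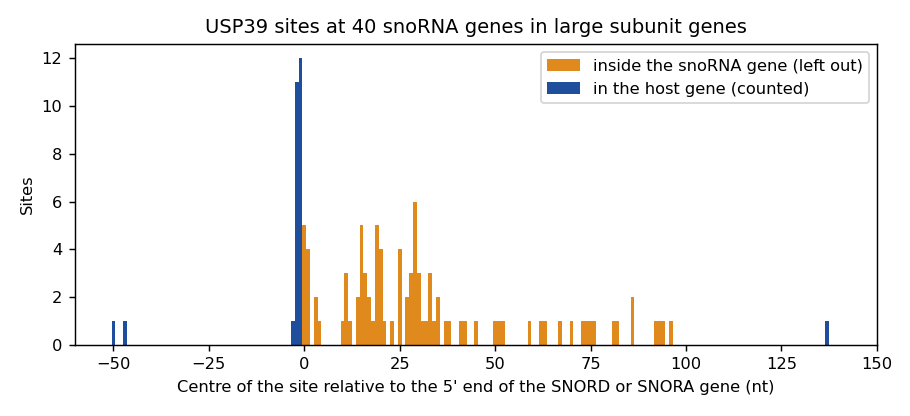
Number of sites (vertical axis) by the distance of their central base from the 5′ end of the snoRNA gene in nt (horizontal axis; 0 is its first base), for the 40 SNORD and SNORA genes in large subunit genes and 50 nt on each side. Host sites (blue) are almost all centred directly before the 5′ end, with 12 sites at 1 nt and 11 at 2 nt before it, while sites centred inside the snoRNA (orange) were not counted for the host.

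The spans of 13 members overlap another protein-coding gene, and in 8 of them counted sites lay in the shared stretch, 123 sites or 16.2% of all. With genes of any class, such as lncRNA genes, 135 sites (17.7%) lay in another gene. Neither the counts of members nor these shares were set beside those of other genes. In 6 of the 8 the other gene is annotated on the opposite strand, so that the strand of the sites sets them apart. RPL15 lies whole within NKIRAS1 with its 27 sites, RPL24 within LOC124906262 with 23 and RPL35A within DRC9 with 14. RPL5 shared 35 of its 42 sites with the span of DIPK1A, RPL27A shared 2 of 16 with TRIM66, and RPL36 shared 1 of 8 with LONP1. In DIPK1A, LOC124906262 and DRC9 there were 0 sites outside the large subunit gene. NKIRAS1 had 1 such site, which was on the strand of RPL15, and LONP1 had 11, all on its own strand. In RPL17 and RPL36A the other gene is the read-through locus on the same strand, RPL17-C18orf32 and RPL36A-HNRNPH2, which holds all 14 and all 7 of their sites, and the RNAs cannot be told apart. In the other 5 overlaps, among them TBC1D8 over 71.7% of the span of RPL31, the shared stretch held none of the counted sites. The 3 microRNA genes inside members, MIR6850 in RPL8, MIR7111 in RPL10A and MIR6805 in RPL28, had no site. Processed pseudogenes of ribosomal proteins are common in the genome, and the treatment of reads that match several copies is not stated, so the number of sites in any 1 gene is uncertain to that extent.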

How the data were processed

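USP39 iCLIP2 sites from HEK293T cells were read from 1 merged BED list. The submitters' processing notes name build GRCh38.p12 and, with no role or order, UMI-tools 1.1.2, STAR 2.7.3a, bedtools 2.29.2, SAMtools 1.10 and FastQC 0.11.9. The caller, its filters and the treatment of reads with several matches were not given in the sources used. The score that the authors deposited is 0 for every site, so only position and strand were used. Coordinates count the first base as 1. Gene spans, names and start sequences came from RefSeq tables of GRCh38.p14, and all 45 members were matched. The gene spans carry no exons. Strands were checked against the promoter table, which lists 38 members. Other protein-coding genes were counted by the same rule, so a site in overlapping genes counts for each.

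No test was run, since no value belongs to 1 library. Any member could be named. Those described in full followed a rule (the 12 members with the most sites, the 5 with the highest density, those with shared spans, the 5 hosts with the most sites left out, and the 3 leading genes of each list set beside them). Other members were named by role group, at the low end or as examples. Those at the low end and the examples, and paralogs beyond the leading ones, were chosen after their values were seen. SNORD and SNORA genes were counted on the strand with most sites within 5 nt of the gene, where set beside those elsewhere. The members, lists and rule were chosen with earlier results of these data known. A gene of the lists set beside the members is not reported here. The start and snoRNA end positions were examined after seeing the data. Scripts ran in Python 3.11.15 and used pandas 2.3.3, numpy 2.4.6, matplotlib 3.10.9 and scipy 1.17.1. The counting rule was tested on simulated data and recovered all planted sites in 100% of 45 genes.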

Additional observations from a re-analysis of the deposited data

Results flagged for a closer look

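A pair of signals lay in data outside the counted sites, and no expected count was computed for either. The SNORD and SNORA genes inside the large subunit genes held 92 sites, 65 in SNORD and 27 in SNORA genes, or 24.9 sites per kb of snoRNA gene, against 3.22 per kb in the remaining spans of the same 19 hosts. A site was present in 26 of 28 SNORD genes and 11 of 12 SNORA genes, together 92.5% of the 40, against 45.2% of all 544 SNORD and SNORA genes, 94.7% of the 19 in small subunit genes and 39.4% of the remaining 485. RNA abundance was not measured, and how many of the 485 are expressed in this line is not known here. The second signal was the 20 sites centred 1 to 10 nt before the spans, out of 22 in the whole 500 nt before them. No explanation of either was tested.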

How the results depend on the processing

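For 10 results, 85 alternatives were computed, of which 72 stayed within the counting interval of a share or within 1.5 times a count or density. Among these 72 are the settings with both strands and with at least 3 sites. They could not change the member counts, since no member had a site on the other strand or fewer than 4 sites. No result changed direction, but only the large minus small subunit difference could have done so. With sites within 50 nt joined, the 761 sites became 476 and the median density 1.92 per kb, while RPL3 remained the gene with the most sites, 35. With SNORD and SNORA sites kept, 68.6% of sites had a neighbour within 50 nt and 26.6% lay in the span of another gene (17.7% without them), since each added site lies in a snoRNA gene by definition. The large minus small subunit difference in median density, -0.44 sites per kb, was -0.70 with those sites kept, -0.69 with sites within 20 nt of the snoRNA genes left out too, and -0.86 with sites in another protein-coding gene left out. That last setting left 40 members with a site. Wider windows moved the shares by construction: the outer 20% of the gene held 32.1% at the 5′ side and 17.3% at the 3′ side, and a neighbour lay within 20 nt for 40.7% of sites and within 100 nt for 75.6%. Alternatives chosen after seeing the data gave a site in the first 20 nt in 53.3% of members, and a site in the first 50 nt in 84.4% with sites up to 10 nt before the span counted. No paired analysis was possible because the list has no columns per library. A stricter site threshold and leaving out a library could not be run for the same reason, and read depth is unknown.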

Other observations

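Genes related to the large subunit genes were counted by the same rule. Among paralogs, RPL7L1 had 10 sites, RPL36AL had 6 and RPL26L1 had 1, none of them in the first 50 nt. RPL3L, a paralog used mainly in heart and skeletal muscle, and RPL10L, used mainly in testis, had 0, as did RPL22L1 and RPL39L. The genes of the mitochondrial large subunit, whose proteins are also made in the cytosol but work in mitochondrial ribosomes, had a site in 23 of 49 (46.9%, against 22.7% of other protein-coding genes), led by MRPL34 with 34, MRPL37 with 9 and MRPL24 with 8. Their median among genes with a site was 2 sites, against 3 in the other protein-coding genes with a site, and 3 of the 23 (13.0%, against 7.71%) had a site in the first 50 nt.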
